A study of Caenorhabditis elegans with 2 samples.

Results

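The genes described here are the DNA replication and cell cycle genes of Caenorhabditis elegans, and the question is where the TBP-like factor TLF-1 was bound in front of them. Members were taken by a rule on gene symbols, which was proposed with earlier results of these data known. The rule takes the protein-coding genes named mcm, orc, psf, cyb, cdk or cdc with any suffix, without cdc-48.1 and cdc-48.2. It also takes sld-5, pcn-1, div-1, rnr-1, rnr-2, cdt-1, gmn-1, cya-1, cyd-1 and cye-1. This rule matched 55 of 19973 protein-coding genes. A symbol rule also takes in genes that act elsewhere, such as mcm-3AP, the homologue of a human messenger RNA export factor, cdc-5L of the spliceosome and cdc-50.B, a subunit of lipid flippases, and they were kept.

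The data are chromatin immunoprecipitation and sequencing of whole young adults, aged 65.5 hours, of both sexes, grown from L1 larvae that had been starved after bleaching. The strain, OP749, carries the transgene wgIs749, which holds tlf-1::TY1::EGFP::3xFLAG and a working copy, unc-119(+), in animals with the unc-119 (tm4063) allele, and an antibody against GFP was used. There was 1 group with 2 biological replicates, and without an untagged strain the share of signal that arises without TLF-1 is unknown. Whole animals were used, so the tissue in which a site was bound is not given. Sonicated fragments were selected at 200 to 800 bp.

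Peaks came as 4 deposited lists: 24495 in replicate 1, 23453 in replicate 2, 28153 in a list called on both replicates pooled, and 1880 in a set kept by irreproducible discovery rate (IDR), which measures how well the ranks of replicates match. A gene had a promoter summit when the highest point of a peak lay between 500 bp upstream and 100 bp downstream of its annotated start. The 1880 strongest peaks of each replicate, by the authors' signal value, are called strong below. Rank 1 is the strongest peak of a list, and signal values and ranks are the authors' order within that list. Read depth is not given in the sources used here.

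TLF-1 is a relative of the TATA-binding protein, which nucleates transcription at many promoters, and such relatives serve distinct sets of promoters in animals. Replication begins when the origin recognition complex, CDC6 and CDT1 load the MCM helicase on DNA. The helicase then fires with CDC45 and the GINS complex, and the clamp PCNA holds the polymerases in place. In an adult worm the germ line is where most cell division goes on, and many of these transcripts are also supplied to the egg. In animals generally, E2F factors bind the promoters of many S phase genes.

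An IDR promoter summit was present at 11 of the 55 genes, or 20% (95% Wilson interval 11.6 to 32.4), where 5.28% of all protein-coding genes had a summit of this kind. These were pcn-1, rnr-1, mcm-2, mcm-3, mcm-4, mcm-6, cdc-6, gmn-1, cyb-2.2, cyb-3 and cdk-5. Strong summits were found at 11 genes in replicate 1 and 11 in replicate 2, against 5.13% and 4.94% of all coding genes. There were 10 genes with a strong summit in both, against 3.8%. In the full lists, 32 of the 55 genes had a promoter summit in replicate 1 (58.2%, against 23.1% of coding genes), 36 in replicate 2 (65.5%, against 22.7%) and 34 in the pooled list (61.8%, against 25.7%). Both replicates had a summit at 28 genes (50.9%, against 14.6%), and no list had any at 15 (27.3%, against 66.3%). These shares are descriptions without a test, and the intervals cover counting error only, not the choice of members. The full lists also hold weak peaks, so a summit in them need not be a significant one. At genes without an IDR promoter summit, the deposited −log10 q-value of the strongest pooled summit ran from 0.0464 at cdk-4 to 2.998 at mcm-7. The highest value in the pooled list is 3.505.

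**Figure D1:**
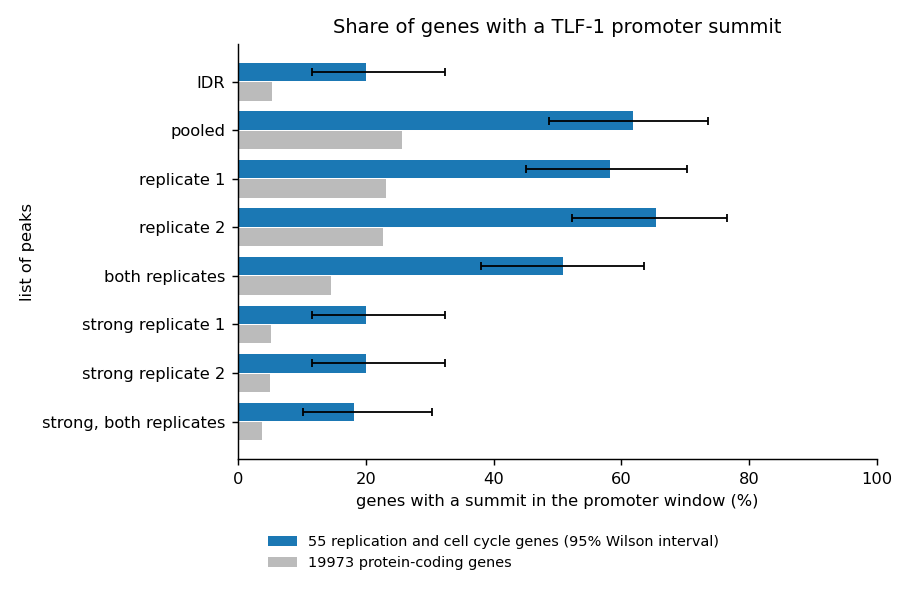
Percent of genes with a TLF-1 summit in the promoter window (x axis) in each list of peaks (y axis), for the 55 replication and cell cycle genes (blue, bars show 95% Wilson intervals) and all 19973 protein-coding genes (grey). In the IDR set the shares were 20% and 5.28%, and in the pooled list 61.8% and 25.7%.

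The clamp and nucleotide supply genes held the strongest summit of all 55 genes. At pcn-1 (WBGene00003955, chromosome IV), which encodes the replication clamp PCNA, the summit ranked 36 in the IDR set with a signal of 490.4. It ranked 23 in replicate 1, where the signal was 250.3, and 47 in replicate 2, where it was 240.6. The peak ran from 4049565 to 4049855 with its summit 249 bp upstream of the start, and a weaker IDR summit of rank 1730 lay 450 bp upstream. No other gene of the 55 had a pair of IDR summits in its window. At rnr-1 (chromosome III), the large subunit of ribonucleotide reductase, the peak from 9228742 to 9229145 ranked 1099 in the IDR set, with a signal of 109.8 and its summit 146 bp upstream. It ranked 1567 in replicate 1 and 1126 in replicate 2. The small subunit gene rnr-2 had no pooled or IDR summit in its window. Its strongest replicate summits there, 88 and 92 bp inside the gene, ranked 16458 and 12032. A pooled summit of rank 7252 lay 126 bp inside the gene, just past the window. Another replicate 2 summit in the window, 153 bp upstream, ranked 20162. An IDR summit of rank 1830 lay 686 bp upstream of rnr-2, outside the window. No list had a summit in the window of div-1, which encodes a subunit of the DNA polymerase alpha and primase complex.

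Sequences under the IDR summits are shown for 7 of the 11 genes, because their promoters differ in whether they hold an E2F motif. Each stretch is up to 200 bases around the summit, read from the RefSeq copy of WBcel235 (ce11) on the strand of the gene, 5′ to 3′. They were shortened where an annotated untranslated exon begins. Capitals mark matches, on either strand, to an E2F-like motif (TTTCCCGC, TTTCGCGC, TTTGCCGC or TTTGGCGC) or to a shorter E2F core (TGGCGC), and the summit lies in the middle of the full stretches, near base 100, or at base 58 for rnr-1.
pcn-1 (chrIV:4049597-4049796, minus strand): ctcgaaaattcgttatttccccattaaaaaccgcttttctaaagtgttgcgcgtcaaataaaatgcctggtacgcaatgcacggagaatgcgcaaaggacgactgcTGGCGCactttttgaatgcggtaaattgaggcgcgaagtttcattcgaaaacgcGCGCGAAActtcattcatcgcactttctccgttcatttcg
mcm-2 (chrII:12006757-12006956, minus strand): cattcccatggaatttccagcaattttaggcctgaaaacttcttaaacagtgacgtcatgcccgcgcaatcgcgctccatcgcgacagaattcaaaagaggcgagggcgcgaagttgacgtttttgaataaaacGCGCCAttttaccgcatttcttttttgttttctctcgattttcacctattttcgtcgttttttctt
cdk-5 (chrIII:13466343-13466466, minus strand): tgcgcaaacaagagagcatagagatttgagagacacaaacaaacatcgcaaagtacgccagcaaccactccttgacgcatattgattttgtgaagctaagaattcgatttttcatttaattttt
cyb-3 (chrV:15395419-15395618, plus strand): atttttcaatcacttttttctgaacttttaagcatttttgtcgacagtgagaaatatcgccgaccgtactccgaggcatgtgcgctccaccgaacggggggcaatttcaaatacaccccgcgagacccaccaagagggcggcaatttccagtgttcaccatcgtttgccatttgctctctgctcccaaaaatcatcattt
rnr-1 (chrIII:9228844-9229001, minus strand): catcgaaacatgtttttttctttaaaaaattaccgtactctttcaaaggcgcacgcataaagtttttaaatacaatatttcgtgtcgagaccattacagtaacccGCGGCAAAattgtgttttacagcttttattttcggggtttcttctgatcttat
gmn-1 (chrIII:12225394-12225593, minus strand): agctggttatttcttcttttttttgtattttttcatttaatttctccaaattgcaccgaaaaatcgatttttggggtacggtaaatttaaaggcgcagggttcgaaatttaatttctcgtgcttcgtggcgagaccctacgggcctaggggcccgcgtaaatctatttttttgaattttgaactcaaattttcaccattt
mcm-6 (chrIII:9794067-9794266, plus strand): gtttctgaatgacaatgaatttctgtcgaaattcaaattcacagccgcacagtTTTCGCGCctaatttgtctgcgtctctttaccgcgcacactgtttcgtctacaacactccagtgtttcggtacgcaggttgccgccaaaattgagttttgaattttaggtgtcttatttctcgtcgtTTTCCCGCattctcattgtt

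The stretches of pcn-1 and mcm-6 hold the same E2F-like word, TTTCGCGC on one strand or GCGCGAAA on the other. That of pcn-1 also holds the E2F core, that of mcm-6 holds another E2F-like word, TTTCCCGC, and that of rnr-1 holds GCGGCAAA, the reverse complement of TTTGCCGC. The mcm-2 stretch holds the core alone. Neither motif is in the stretches of cdk-5, cyb-3 or gmn-1. GC content of these stretches ranged from 34.2% at rnr-1 to 47.0% at cyb-3.

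Genes of the MCM helicase, the ring that unwinds DNA ahead of the fork, had IDR promoter summits at 4 of the 6 subunits (66.7%, against 5.28% of all coding genes). All 6 had a promoter summit in the pooled list and in both replicates, against 25.7% and 14.6% of all coding genes. The strongest was at mcm-2 (chromosome II, peak 12006747 to 12006966), which ranked 186 with a signal of 258.0, with ranks of 275 in replicate 1 and 148 in replicate 2. Its summit lay 232 bp upstream. At mcm-4 (chromosome I, peak 2321778 to 2322181) the summit, 163 bp upstream, ranked 508 with a signal of 160.8, and it ranked 415 and 694 in the replicates. At mcm-3 (chromosome V, peak 15059495 to 15059898) the summit ranked 603 with a signal of 147.0, and 692 and 597 in the replicates. It lay 98 bp upstream, and 111 bp upstream of the divergent gene C25D7.15, so it may belong to either gene. At mcm-6 (chromosome III, peak 9793965 to 9794368) the summit, 200 bp upstream, ranked 1821 with a signal of 85.2, close to the lowest signal of the IDR set, 83.6. The strongest replicate summits in the mcm-6 window ranked 1458 at 233 bp upstream in replicate 1 and 2191 at 416 bp upstream in replicate 2. The replicate 2 peak of that rank does not reach the IDR summit.

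The remaining subunits fell short of the IDR set. The summit of mcm-7, 181 bp upstream, ranked 2487 in the pooled list, 2154 in replicate 1 and 4227 in replicate 2. That of mcm-5, 219 bp upstream, ranked 6069, 12438 and 6275, with low −log10 q-values of 0.956, 0.28 and 0.818. From mcm-2 to mcm-5 the 6 subunits thus spanned pooled ranks from 186 to 6069, with mcm-6 just inside and mcm-7 just outside the IDR set.

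The other helicase genes had no IDR promoter summit, where 5.28% of all coding genes had one. GINS, the complex that joins the helicase at firing, is encoded by psf-1, psf-2, psf-3 and sld-5. Pooled promoter summits of psf-1, psf-3 and psf-2 ranked 5103, 7295 and 9982, and psf-1 and psf-3 had a summit in both replicates. The sld-5 window held none in any list. No list had a summit at cdc-7, a kinase that helps to fire origins. For mcm-10, a factor that helps to activate the helicase, the pooled rank was 3978, with 1973 in replicate 1 and 9677 in replicate 2. The summit of mcm-3AP ranked 15773.

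Of the 8 origin and licensing genes, 2 had an IDR promoter summit, cdc-6 and gmn-1 (25%, against 5.28% of all coding genes). None of the 5 origin recognition complex genes had one, and these are too few to tell from that share. CDC-6 helps to load the helicase. Its gene (chromosome I) had a peak from 4270371 to 4270774 of rank 582 with a signal of 150.8, and ranks of 767 and 577 in the replicates. The summit lay 286 bp upstream of cdc-6 and 93 bp upstream of the divergent gene acin-1, which is nearer. Geminin, encoded by gmn-1 (chromosome III), inhibits the licensing factor CDT-1. Its peak from 12225292 to 12225695 ranked 1310 with a signal of 100.8, with ranks of 1918 and 1211, and its summit lay 163 bp upstream. The cdt-1 gene itself had no summit in any list.

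The origin recognition genes had weaker summits. The best was at orc-5, 211 bp upstream, with a pooled rank of 2560, and the same summit lay 417 bp upstream of the divergent cyclin gene cyb-1. At orc-5 the replicate ranks were 2241 and 5435. Pooled ranks of orc-3 and orc-4 were 10379 and 10384. For orc-1 and orc-2 a summit was found in replicate 2 alone, at ranks 19878 and 8469.

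Of the 7 cyclin genes, cyb-2.2 and cyb-3, both for B-type cyclins of mitosis, had an IDR promoter summit (28.6%, against 5.28% of all coding genes). The cyb-2.2 peak (chromosome I, 4114592 to 4114692) ranked 747 with a signal of 131.4, and 828 and 893 in the replicates, with summits 210 and 214 bp upstream. At cyb-3 (chromosome V, peak 15395317 to 15395720) the summit, 177 bp upstream, ranked 991 with a signal of 115.1, and 1212 and 929 in the replicates. The other B-type genes had lower ranks. For cyb-1 the summit shared with orc-5 ranked 2560 in the pooled list, while the best replicate summits in its window ranked 3127 and 23118. The replicate summits of orc-5, of ranks 2241 and 5435, lay just outside the cyb-1 window. For cyb-2.1 the pooled rank was 13842, with 14669 and 9007 in the replicates. Whether reads can be placed uniquely between the related genes cyb-2.1 and cyb-2.2 was not tested. Cyclin A (cya-1) and cyclin D (cyd-1) had pooled ranks of 9186 and 10977 and a summit in 1 replicate each. Cyclin E (cye-1) had none.

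Among 11 cyclin-dependent kinase genes, cdk-5 was alone in having an IDR promoter summit. This share, 9.09%, is near the 5.28% of all coding genes. CDK-5 is known for work in neurons rather than in the cell cycle. Its peak (chromosome III, 13466165 to 13466568) ranked 608 with a signal of 146.6, and 483 and 729 in the replicates. The summit lay 25 bp upstream of cdk-5, within an intron of kel-3, and it was the nearest to a start of all IDR summits of the 55 genes. The kinases of S phase and mitosis were weaker or without a summit. For cdk-2 the pooled rank was 5532, with 10589 and 4697 in the replicates, and for cdk-4, the partner of cyclin D, it was 24110. No list had a summit in the window of cdk-1, the mitotic kinase.

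The kinases of the transcription machinery gave a mixed picture. At cdk-7, of the general factor TFIIH, both replicates had a strong summit, of rank 1255 with a signal of 51.9 at 34 bp upstream in replicate 1, and of rank 806 with a signal of 70.3 at 42 bp upstream in replicate 2. The pooled and IDR lists had none in its window, and the nearest pooled summit lay 952 bp upstream with rank 3846. Of 1312 strong peaks of replicate 1 that overlapped a strong peak of replicate 2, 7 had no pooled peak over them, and cdk-7 was the only gene of the 55 among their promoter windows. Whether the pooled and IDR lists as used here hold every peak at such places is not known, so the absence at cdk-7, and its place outside the count of 11, holds for these lists alone. At cdk-8, of the Mediator complex, the pooled rank was 4163, with 20498 and 3580 in the replicates. This gene starts 493 bp from the start of tlf-1, which runs the other way, and the window of cdk-8 reaches into tlf-1. How much of this interval the tagged transgene holds is not given in the sources used here, and its part in the signal was not tested. For cdk-9, of the elongation kinase P-TEFb, the pooled rank was 5058, with 3901 and 15119. No list had a summit in the windows of cdk-11.1, cdk-11.2, cdk-12 and cdk-14.

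No IDR promoter summit was found at the remaining 12 cdc genes, too few to tell from the 5.28% of all coding genes. At 5 of them no list had a summit, where this was so at 66.3% of all coding genes. The CDC25 phosphatases, which activate cyclin-dependent kinases, had a pooled summit at cdc-25.3 alone, of rank 17364, and none in any list at cdc-25.1, cdc-25.2 and cdc-25.4. Nor was there any at the phosphatase gene cdc-14 or the chaperone partner gene cdc-37. For cdc-26, a subunit of the anaphase-promoting complex, the pooled rank was 3997, with 21493 in replicate 1 and 2320 in replicate 2. Pooled ranks were 8831 at cdc-42, a GTPase of cell polarity, 9695 at cdc-5L and 23195 at cdc-73, of the PAF1 complex. At cdc-48.3, a AAA ATPase, and cdc-50.B a summit was found in a single replicate, at ranks 17208 and 19651.

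**Figure D2:**
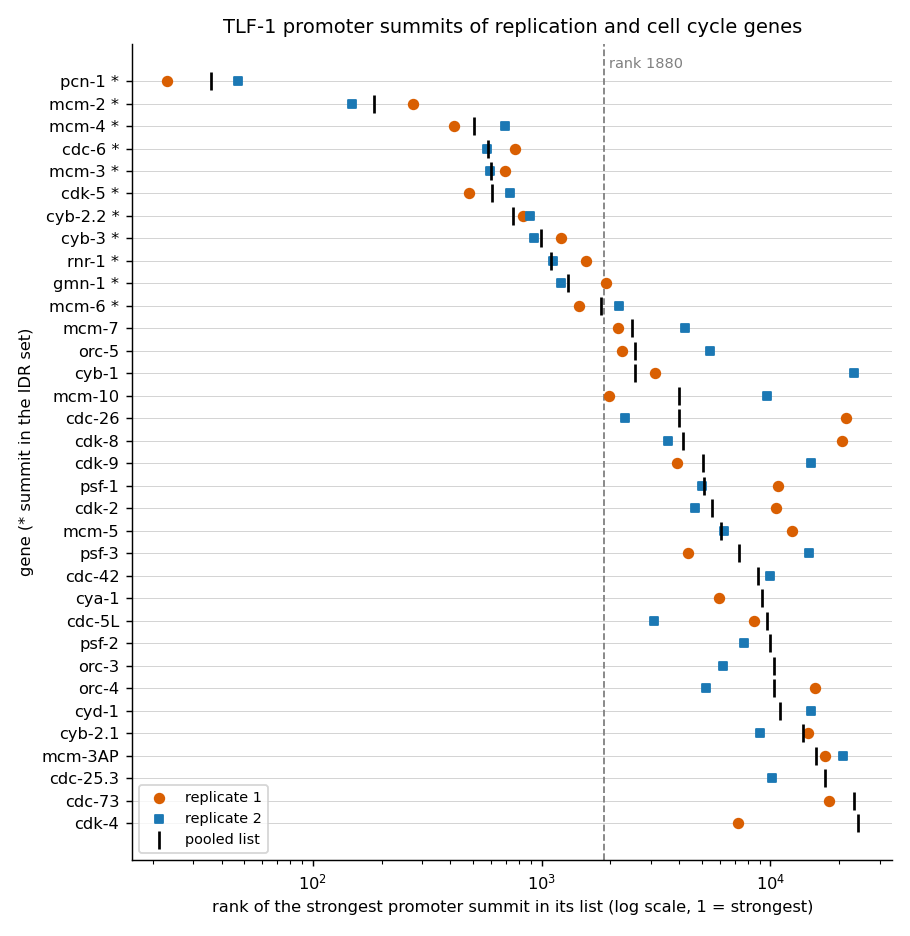
Rank of the strongest promoter summit (x axis, log scale, 1 is the strongest) for the 34 replication and cell cycle genes with one in the pooled list (y axis), in the pooled list (bars), replicate 1 (circles) and replicate 2 (squares); the dashed line is at 1880, the size of the IDR set, and stars mark genes in it. The 11 starred genes had replicate ranks from 23 to 2191, and some genes below them had replicate ranks far apart, as cdc-26 at 21493 and 2320.

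The replicates gave close positions at most genes with a promoter summit in both. The strongest summits of replicates 1 and 2 lay 4 to 183 bp apart at the 11 genes with an IDR promoter summit. The median was 31 bp, and 9 of the 11 were within 50 bp. The widest gap was at mcm-6, where the replicate summits lay 233 and 416 bp upstream. The larger of the 2 ranks was 2.04 times the smaller at most, at pcn-1, with a median ratio of 1.5. At the 17 other genes with a summit in both replicates, the median gap was 27 bp, with 10 within 50 bp, and the widest was 372 bp, at orc-4. At these 17 genes the rank ratio had a median of 2.43 and reached 9.26, at cdc-26. The IDR set was itself derived with a measure of how well the ranks match. At all 11 genes the rank and signal in the IDR set were those of the pooled list. These 2 lists are thus not separate evidence.

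**Figure D3:**
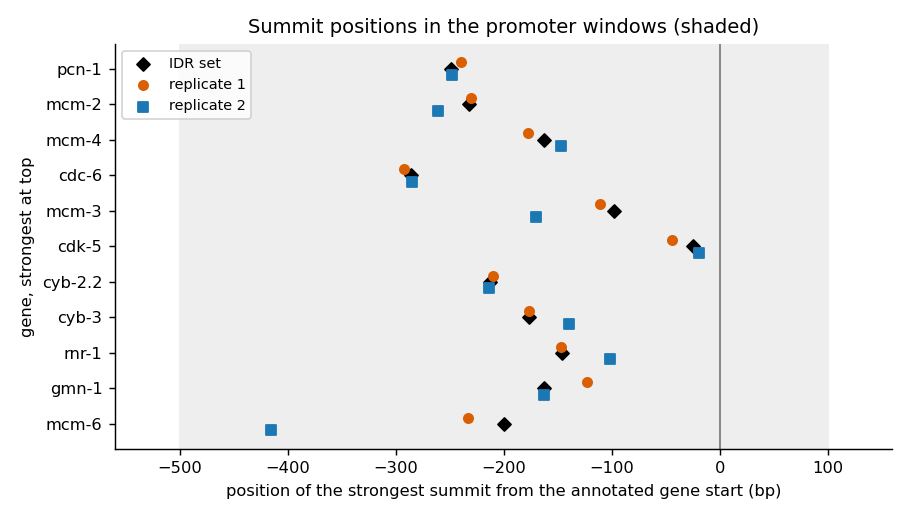
Position of the strongest summit from the annotated gene start in bp (x axis; shaded, the promoter window) at the 11 genes with an IDR promoter summit (y axis, strongest at top), in the IDR set (diamonds), replicate 1 (circles) and replicate 2 (squares). All IDR summits lay upstream, from 286 bp at cdc-6 to 25 bp at cdk-5, and mcm-6 had the widest gap between replicates, 183 bp.

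All 11 strongest IDR summits lay upstream of the start, at a median of -177 bp, between -286 and -25 bp. For the strongest summits of all 1054 coding genes with an IDR promoter summit the median was -197 bp, and 979 lay upstream. In worms, trans-splicing removes the first bases of many transcripts, so the annotated start of such a gene is not where its transcription begins. Of the 12 IDR summits in these windows, 11 lay between coding genes. For 11 the member's start was the nearest among genes whose window held the summit. Where no other window held it, this was so by default, and distances to the starts of other genes were not compared. A window of a neighbouring gene held 2 of the 12 (16.7%), where 224 of 836 coding promoter summits (26.8%) lay in more than 1 window. No annotated non-coding RNA gene, piRNA genes aside, overlapped the 12 peaks. Median IDR rank was 608 for the 11 genes and 744.5 for the 1054. In the pooled list the median rank was 4610.5 for the 34 genes with a summit and 7907 for 5137 coding genes.

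E2F-like motifs were found in the promoter windows of 16 of the 55 genes, or 29.1% (Wilson interval 18.8 to 42.1), where 9.12% of all coding windows of the same length hold this motif. Of the 16, 12 are replication genes by role. The windows of mcm-3, mcm-4, mcm-5, mcm-6 and mcm-7 hold it, as do pcn-1, rnr-1, rnr-2, orc-1, orc-3, cdt-1 and cdc-7, against cyd-1 alone of 7 cyclins, cdk-2 alone of 11 kinases, and cdc-25.1 and cdc-25.2. The word TTTCGCGC, on either strand, was in 6 windows, those of mcm-3, mcm-4, mcm-6, mcm-7, pcn-1 and orc-1 (10.9%, against 2.18% of coding windows). This count by single word was chosen after the matches were seen. The E2F core TGGCGC, which the word TTTGGCGC contains, was in 13 windows (23.6%, against 9.85%), and mcm-2, the subunit without the E2F-like motif, held the core. In all, 22 of the 55 windows held either motif (40%, against 16.3% of coding windows).

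The motif was found at genes with and without a summit. Of the 11 genes with an IDR promoter summit, 5 held the E2F-like motif (45.5%, Wilson interval 21.3 to 72.0), and of the 44 others 11 did (25%, interval 14.6 to 39.4). These intervals overlap. The E2F core was in 27.3% of the 11 genes, 22.7% of the 44 others and 27.6% of all coding genes with an IDR summit. For the E2F-like motif over all coding genes, 214 of 1054 with an IDR summit held it (20.3%), and 8.49% of those without. Read the other way, 31.2% of the 16 genes with the motif had an IDR promoter summit and 15.4% of the 39 without, against 11.8% and 4.63% over all coding genes. The 6 matches at mcm-3, mcm-4, mcm-6, rnr-1 and pcn-1 were centred 36 to 84 bp from the summit. Matches to the core at mcm-2, mcm-4 and pcn-1 were 3 to 38 bp from it. Within 100 bp of the summit, 5 of 12 summits of these genes had the E2F-like motif, against 14.8% of 836 coding promoter summits. In the same span the E2F core was at 3 of 12 summits (25%, against 20.7%), the NRF1-like core TGCGCA at 4 (33.3%, against 7.42%) and the cell cycle element TTTGAA at 9 (75%, against 42.9%). The TATA box was at 3 (25%, against 16.5%) and the CCAAT box at 2 (16.7%, against 28.3%). The cdt-1, cdc-25.1, cdc-25.2 and cdc-7 windows hold an E2F-like motif and had no summit in any list.

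The other motifs searched were the TATA box, the CCAAT box, a cell cycle element and an NRF1-like word. The TATA box (TATAAA or TATATA), the element bound by the TATA-binding protein, was in 52.7% of the 55 windows and 64.5% of all coding windows, and in 6 of the 11 with an IDR summit. The CCAAT box was in 65.5% against 71.8%, and the cell cycle homology region (TTTGAA), an element of cell cycle promoters, in 85.5% against 85.5%. An NRF1-like core (TGCGCA), which shares no base with a match to either E2F motif, was in 8 windows (14.5%, against 6.15%). Of these genes, pcn-1, cdc-6, cyb-2.2 and cdk-5 have an IDR promoter summit, and cdc-5L, cdc-37, mcm-3AP and cdk-11.2 have none. It was in 11% of the windows of all coding genes with an IDR summit. With 250 bp upstream the shares were 5.45% of the 55 windows and 3.68% of all coding windows. Median GC content was 35.6% over the 55 windows, 35.9% for the 11 with an IDR summit and 34.6% over all coding windows. A match is a run of letters and not a measured site.

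**Figure D4:**
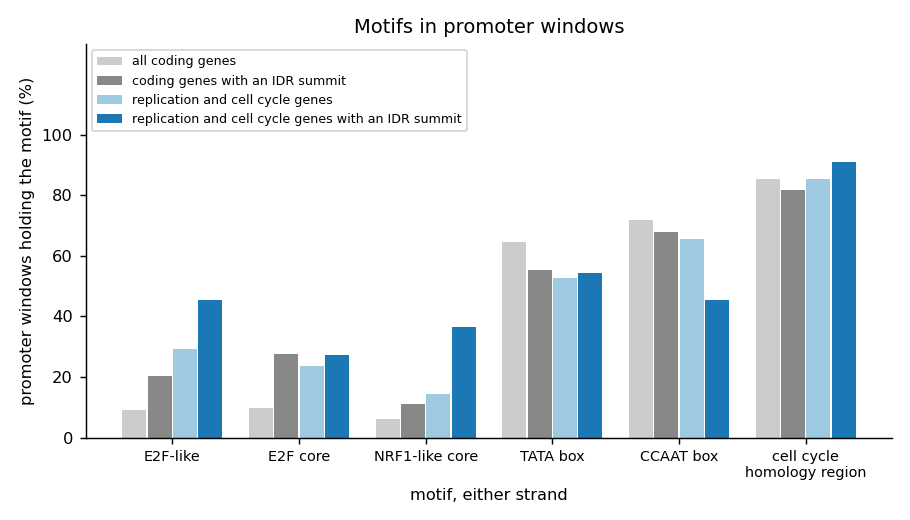
Percent of promoter windows, 500 bp upstream to 100 bp downstream, that hold each of 6 motifs on either strand (y axis), by motif (x axis), in all coding genes (light grey), coding genes with an IDR summit (dark grey), the 55 replication and cell cycle genes (light blue) and the 11 of them with an IDR summit (dark blue). The E2F-like motif was in 9.12%, 20.3%, 29.1% and 45.5% of these groups, and the TATA box in 64.5%, 55.4%, 52.7% and 54.5%.

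Other genes of the same pathways also carried summits. Of 34 other S phase genes, from a list of 42 symbols of which 8 are not in the annotation, 8 had an IDR promoter summit (23.5%, Wilson interval 12.4 to 40.0) and 20 had a summit in both replicates. These were top-2 (a topoisomerase, rank 57), tim-1 (the homologue of a fork protection factor, 102), rfc-4 (a subunit of the clamp loader, 127), ctf-4 (the homologue of a replisome adaptor, 146), cul-4 (a cullin that acts in CDT-1 turnover, 361), unc-85 (a histone chaperone, 362), dut-1 (the dUTPase, 1533) and pola-1 (the catalytic subunit of DNA polymerase alpha, 1732). The windows of neighbouring genes also held the summits of 5 of them: top-2 with npp-3, tim-1 with Y75B8A.23, rfc-4 with the translation factor gene eef-1A.1, ctf-4 with eef-1G, and pola-1 with Y47D3A.1. In replicate 1 these 8 ranked 51 to 2399 and in replicate 2 from 57 to 2229.

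Of 47 other cell cycle regulators, 7 had an IDR promoter summit (14.9%, Wilson interval 7.41 to 27.7) and 18 had a summit in both replicates. They were plk-1 (the Polo-like kinase, rank 244), ify-1 (securin, 299), lin-35 (the retinoblastoma homologue, 360), efl-1 (an E2F factor, 770), bub-3 and mdf-2 (spindle checkpoint, 942 and 1087) and atm-1 (a DNA damage kinase, 1633). Windows of neighbouring genes also held 5 of these summits, namely ify-1 with the ribosomal protein gene rpl-22, lin-35 with vps-51, bub-3 with Y54G9A.7, mdf-2 with nduv-3 and atm-1 with F56C11.3. At mdf-2 the summit lay 9 bp inside the gene. The replicates were far apart at bub-3, which ranked 4961 in replicate 1 and 472 in replicate 2, and at atm-1, which ranked 918 and 4594. For comparison with both gene lists, 5.28% of all coding genes had an IDR promoter summit and 14.6% had a promoter summit in both replicates.

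Position in the genome varied among the 55 genes. IDR promoter summits were at 3 of 17 genes on chromosome I, 1 of 9 on II, 4 of 15 on III, 1 of 7 on IV, 2 of 5 on V and neither of the 2 on X. Over all coding genes the shares were 7.54% on I, 5.1% on II, 9.24% on III, 5.67% on IV, 3.3% on V and 2.42% on X. Of 8 genes in operon-like position, whose start lies within 500 bp downstream of a coding gene on the same strand, 3 had an IDR promoter summit, namely mcm-4, rnr-1 and gmn-1, against 6.25% of all coding genes in such a position. Of the 47 others 8 had such a summit, against 5.06%.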

How the data were processed

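Both replicates of the single group were used. The authors deposited narrowPeak lists on ce11, per the labels and README files: 1 per replicate, each called against a shared control file, 1 pooled, and the IDR set derived from the other 3. The deposited signal value of each peak ranked it within its list. The deposited −log10 q-value was not used for ranking, since 10 of the 12 IDR peaks described sit at its maximum. The deposited summit offset placed each summit. The sources used here name no peak caller, aligner, IDR threshold or depth.

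Gene models were Ensembl release 115 on WBcel235, the assembly of ce11, and sequence was RefSeq's copy of it. Shares carry 95% Wilson intervals. No test was run, since there is 1 group and the members and lists were chosen with earlier results of these data known. Named were every gene of the members and pathway lists with an IDR promoter summit, the 6 members next by pooled rank, and other members by rank or as having none. Sequences were limited to at most 8, and 7 are shown. Alternatives covered the window, transcript starts, peak overlap, shared summits, stronger peaks, each replicate and the gene rule. The code was tested on simulated data. Tools were matplotlib 3.10.9, scipy 1.17.1, pandas 2.3.3 and numpy 2.4.6 under Python 3.11.15. Sequence of the other 4 genes is not reported here.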

Additional observations from a re-analysis of the deposited data

How the results depend on the processing

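The count of 11 genes with an IDR promoter summit was 7 in the 940 strongest IDR peaks, where cyb-3, gmn-1, mcm-6 and rnr-1 dropped out and 3.12% of coding genes had one. In the other 12 alternatives run it lay between 9 and 12, while the share of coding genes with one ranged from 3.45% to 6.98%. It was 9 in the 1280 IDR peaks strong in both replicates (against 3.84% of coding genes), without gmn-1 and mcm-6. No IDR set can be made from 1 replicate, so leaving out a replicate meant using the strong peaks of the other in its place, which are the single-replicate counts of the report: 11 without replicate 1, with cdk-7 in place of mcm-6, and 11 without replicate 2, with cdk-7 in place of gmn-1. A window of 250 bp upstream left out cdc-6 (10 genes, against 3.45% of coding genes). So did giving each summit to the nearest start among the windows holding it (10, against 4.15%). A window of 1000 bp upstream added rnr-2 (12, against 6.62%). Without 9 genes of other functions it was 10 of 46, and without 12, a choice made after seeing the data, 10 of 43. The 28 genes with a summit in both replicates were 10 with strong peaks only, against 14.6% and 3.8% of coding genes. The 8 other S phase genes were 5 when each summit went to the nearest start among the windows holding it (against 4.15% of coding genes). This left out ctf-4, tim-1 and top-2. With 1000 bp upstream they were 12 of 34 (35.3%, against 6.62%). The 7 regulators were 4 in the 940 strongest (against 3.12%) and 10 of 47 with 1000 bp upstream (21.3%, against 6.62%). The median summit position of -177 bp ranged from -178 to -163 bp without each replicate and was -188.5 bp with 1000 bp upstream and 500 bp downstream. The median pooled rank of 4610.5 was 3997 to 4163 in 3 other windows, and the E2F-like share of 29.1% (9.12% of coding windows) was 25.5% (5.21%) with 250 bp upstream, 36.4% (15.6%) with 1000 bp upstream, and 23.6% (9.85%) for the core. What depth limits could not be assessed, since it is unknown.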

Other observations

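IDR summits near these genes but outside their windows were seen at 8 of the 44 genes without an IDR promoter summit, counting those within 2000 bp of the start (18.2%, against 5.61% of all coding genes without an IDR promoter summit). Upstream of the start they lay 686 bp away at rnr-2, 1477 at cdc-7, 1580 at mcm-3AP and 1691 at cdc-37. Downstream they lay 995 bp away at psf-3, 996 at cye-1, 1347 at cdk-1 and 1986 at cyb-1. Those at psf-3 and cyb-1 lay past the end of the gene, and which other genes they are near was not examined. Over the 44 genes the median distance to the nearest IDR summit was 13647.5 bp, against 27068 bp over all such coding genes, and the farthest was 292026 bp, at psf-2.

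At cdk-1, whose window held no summit in any list, summits lay upstream of the window and near the end of the gene. The IDR summit 1347 bp downstream of the start, inside the gene and 33 bp before its end, had a signal of 107.1 and ranked 1152, with 1139 in replicate 1 and 1178 in replicate 2. A summit 598 bp upstream ranked 2044 in the pooled list, with 2356 at 607 bp upstream in replicate 1 and 2590 at 589 bp in replicate 2.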
